A study of Mus musculus and Homo sapiens with 90 samples.

Results

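The 35 test regions described here are those whose names begin with EM10D, taken from 105232 region names in the 16 count tables of a massively parallel reporter assay (MPRA). They were chosen by name alone, and the same name was joined over the assay's 5 sub-libraries after the sub-library ending was removed. Of the other names, 103142 began with EH38D, 7 were test regions with names of another form and 2048 were negative controls. The regions were measured in 4 systems, and a region in 1 sub-library is called an entry below. No sequence or genome position of the 35 regions was used here, so none is printed.

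An MPRA links many short DNA elements to a reporter gene and counts each element in the reporter RNA and in the DNA that was delivered. The ratio of RNA to DNA reads out how strongly an element drives transcription in the cells that carry it. Names of the EM10D form belong to ENCODE's catalogue of open chromatin sites of the mouse genome, and names of the EH38D form to the matching catalogue of the human genome. Open chromatin marks promoters, enhancers and insulators, and an element that is open in some tissue need not drive a reporter in another.

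HepG2, a human liver cancer line with the genotype p53-WT, had 14 RNA and 5 DNA libraries over the 5 sub-libraries. Hep3B, titled as such and p53-null, had 2 RNA libraries and 1 DNA library, all of sub-library 2. For Hep3B the source and cell line entries say HepG2, and no host gene was counted in these tables against which the name could be checked. Mouse liver of the genotype C57BL/6 had 15 RNA and 15 DNA libraries without a treatment entry, called conventional below, and 15 RNA and 15 DNA libraries from germ-free animals, which are raised without any microbiota. The labels give no age or sex for these mice and leave it unstated whether replicates are different animals or cultures, so every p-value rests only on the spread between the libraries at hand, which may be technical. Liver was measured in bulk, so fewer cells of a type that transcribe a reporter and less reporter RNA per cell cannot be told apart. The batch entry of each library is its sub-library, and no other batch is named. The library names in the table headers, however, begin with GIS for all germ-free libraries except the 3 DNA libraries of sub-library 5, which begin with AML as all conventional ones do. What these letters stand for is not given, so a difference in preparation that goes with them cannot be told apart from the germ-free state.

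Total counts ranged from 1720314 to 8202279 in HepG2 RNA, 9394679 to 17696987 in Hep3B RNA, 1172822 to 6627375 in conventional liver RNA and 2740171 to 25625463 in germ-free liver RNA. The DNA totals ranged from 3075432 to 8091318 in HepG2 and from 2507261 to 9897059 across both kinds of liver, and the single Hep3B DNA library held 1700473. The median DNA count of an EM10D entry was 222 in HepG2, 234.7 in germ-free and 223.7 in conventional liver but 38 in Hep3B, where the lowest was 11. Every table listed only regions with at least 10 reads in each of its RNA libraries, so a region with little reporter RNA drops out and its absence sets no level. HepG2 listed 28 to 35 of the EM10D regions per sub-library, Hep3B all 35, conventional liver 3 to 31 and germ-free liver 14 to 34. Sub-library 2 of conventional liver was the thinnest table, with 3 of 35 EM10D regions (8.57%) against 19.4% of all names of that sub-library. All listed entries passed the minimum mean DNA count of 10, which left 159 entries in HepG2, 35 in Hep3B, 125 in germ-free and 105 in conventional liver.

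In HepG2, more EM10D entries had RNA above DNA than below it. The values are log2 RNA/DNA after TMM scaling, which places the bulk of all entries near 0. Of 159 entries, 36 (22.6%) were higher and 13 (8.18%) lower in RNA at an adjusted p under 0.05 (edgeR's quasi-likelihood test, adjusted over all entries), where 17.3% of all 99921 entries were higher and 12.6% lower. The median EM10D entry lay at 0.25, that of all entries at -0.02 and that of the negative controls at -0.23. Outside the central 95% of the negative controls lay 26 EM10D entries above and 4 below, against 13.9% and 5.00% of all entries. Without TMM, on library sizes alone, the split was 25 higher and 22 lower, with 13.0% and 20.3% of all entries, which shifted to a median of -0.33. The EM10D median lay 0.24 to 0.30 above that of all entries under every scaling tried.

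By name, 15 of the 35 regions were higher in RNA in at least 1 HepG2 sub-library, 8 were lower, 1 of these was both, and 13 were called in neither direction. A name listed in several sub-libraries has several chances of a call, here and in the counts by name below. Only 68 of the 103142 EH38D names were listed in more than 1 sub-library. The shares of all entries are therefore no background for these counts, and no matching share of names is given. EM10D2104529 was the highest, with a mean log2 RNA/DNA of 2.61 ± 0.46 (SD over 5 sub-libraries). Its 14 RNA libraries ran from 1.94 through a median of 2.56 to 3.38, on DNA counts of 71 to 543, and it was higher in all 5 sub-libraries. EM10D2895960 followed at 1.92 ± 0.42 and was also higher in all 5, with libraries from 1.16 through 2.02 to 2.52. Both regions therefore stood above DNA in every one of their HepG2 libraries. EM10D2199384 had a mean of 1.84 ± 0.33 (5 sub-libraries), libraries from 1.36 through 1.84 to 2.42, and passed the test in 4 of 5. The means of EM10D2895960 and EM10D2199384 differed by less than their spread over sub-libraries.

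At the other end of HepG2, EM10D2199452 averaged -1.75 ± 0.32 over its 4 listed sub-libraries and was lower in RNA in all 4. Its 12 libraries ran from -2.74 through -1.70 to -1.17. EM10D2945255 averaged -1.63 ± 0.45 (4 sub-libraries), with libraries from -2.51 through -1.41 to -0.62, and was lower in 3 of 4. EM10D2546617 averaged -0.88 ± 0.30 and passed the test in 1 of 5 sub-libraries. That call was lost in 5 of 9 alternative settings, among them the fit without HepG2 replicate 3 (mean -0.80). Its 14 libraries, from -1.93 through -0.91 to -0.03, were nevertheless all below 0. The lowest pair thus lay near each other, within their spread, and well under EM10D2546617.

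EM10D2183391 was the region that differed most between HepG2 sub-libraries. Its 2 libraries in sub-library 1 read 0.65 and 1.14, and the 3 in sub-library 2 read 1.40, 0.97 and 1.22. In sub-library 3 they read -1.94, -2.05 and -2.01. The values were 0.27, 0.57 and 0.22 in sub-library 4, then 0.19, -0.10 and -0.03 in sub-library 5. It was higher in RNA in sub-library 2 and lower in sub-library 3, on DNA counts of 479 and 422, while replicates within each sub-library lay close together. Its mean of 0.09 ± 1.26 over HepG2 therefore describes none of the 5 sub-libraries well. Each HepG2 sub-library has a single DNA library, so a deviation of that library moves all its RNA values together, and the part of the DNA library in this spread was not tested.

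In Hep3B, 10 of the 35 EM10D regions (28.6%) were higher in RNA and 4 (11.4%) lower, where 22.7% of all 22605 entries were higher and 12.8% lower. The median EM10D region lay at 0.02, all entries at 0.07 and the negative controls at -0.07. Against the negative-control range, 5 were above and 1 below, with 11.2% and 4.09% of all entries. On a scaling to the negative controls the split was 3 higher and 2 lower, with 7.75% and 7.08% of all entries. These shares lie near those of all entries, and the low DNA counts limit single regions.

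EM10D2199384 led in Hep3B with 2.10 and 2.23 in its 2 RNA libraries, on a DNA count of 22. EM10D2895959 read 1.90 and 1.98 on a DNA count of 180, and EM10D2104529 read 1.73 and 1.89 on 68. The 3 were higher in RNA. The lowest were EM10D2955768 at -2.14 and -2.38, on a DNA count of 16, EM10D2199381 at -1.80 and -1.65 and EM10D2199492 at -1.18 and -1.09, all lower in RNA. The 2 RNA libraries of a region differed little, with a median SD of 0.076 over the 35 regions, but they share 1 DNA library, so this spread leaves out the error of the DNA count.

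In conventional liver the balance was the other way. Of 105 entries, 8 (7.62%) were higher and 32 (30.5%) lower in RNA, where 25.0% of all 72336 entries were higher and 21.6% lower. Of the negative controls, 10.7% were higher and 22.0% lower. The EM10D median was -0.33, that of all entries -0.07 and that of the negative controls -0.24. Against the negative controls, 6 lay above the range and 3 below it, with 16.2% and 3.41% of all entries. The split was 15 higher and 20 lower when scaled on the negative controls (29.9% and 14.4% of all entries). It was 5 higher and 79 lower on library sizes alone (13.2% and 54.2% of all entries), where all entries had a median of -1.01. Under all scalings tried, the EM10D median lay 0.25 to 0.36 below that of all entries.

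Of the 34 names listed in conventional liver, 4 were higher somewhere, 21 were lower somewhere and 9 were called in neither direction. EM10D2955768 was the name that its tables did not list. EM10D2104529 was again the highest, at 2.11 ± 0.64 over 3 sub-libraries. Sub-library 1 gave 2.37, 2.20, 2.57 and 1.79 in its libraries, sub-library 4 gave 2.74, 2.80, 2.53 and 2.69, and sub-library 5 gave 1.82, 0.37 and 2.06. It was higher in RNA in all 3, and 1 library of sub-library 5 stood below its other libraries.

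EM10D2183391 came next in conventional liver at 1.81 ± 1.06 over 5 sub-libraries, higher in 3 of them. Sub-library 1 gave 1.98, 1.99, 2.19 and 2.13, sub-library 4 gave 3.70, 3.50, 2.90 and 2.49, and sub-library 5 gave 2.93, 2.01 and 2.14. Sub-library 2 gave 0.75 and 0.83 and sub-library 3 gave 0.58 and 0.79, and the test was passed in neither. All 15 libraries were above 0. EM10D2955823 followed at 0.43 ± 0.47 (3 sub-libraries), higher in sub-library 1 only. It passed the test nowhere without conventional replicate 1, 2 or 3 (means of 0.58, 0.75 and 0.24), and on library sizes alone its mean turned to -0.47. The fourth name called higher, EM10D2895960, was so in sub-library 1, with 0.61, 0.45, 0.89 and 0.45.

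The lowest in conventional liver were EM10D2199452 at -1.90 ± 0.09 (2 sub-libraries), EM10D2945255 at -1.86 ± 0.69 (2 sub-libraries) and EM10D1470219 at -1.55 ± 0.36 (2 sub-libraries). For EM10D2199452, sub-library 3 gave -2.83 and -1.09 and sub-library 5 gave -3.18, -0.86 and -1.46, and the test was passed in the latter, though not without conventional replicate 1 (mean -1.13) or 3 (mean -1.66). For EM10D2945255, sub-library 3 gave -1.45 and -1.29 and sub-library 4 gave -3.06, -3.18, -1.63 and -1.55, lower in both. For EM10D1470219, sub-library 1 gave -2.34, -1.61, -1.59 and -1.66 and sub-library 4 gave -1.57, -1.85, -0.89 and -0.89, again lower in both. The 3 means differed by less than the spread between their libraries. EM10D2199452 and EM10D2945255 were thus the lowest regions of HepG2 and of conventional liver alike.

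In germ-free liver many EM10D entries passed the test in each direction. Of 125 entries, 29 (23.2%) were higher and 39 (31.2%) lower in RNA, where 28.4% of all 86704 entries were higher and 25.7% lower. This direction depended on the scaling: with the negative controls as the zero, 49 were higher and 19 lower, and on library sizes alone 16 were higher and 45 lower. All entries moved with it, to 43.6% higher and 13.8% lower on the first and 20.6% and 33.4% on the second. The EM10D median was -0.23, that of all entries 0.03 and that of the negative controls -0.59, and the EM10D median lay 0.25 to 0.31 below that of all entries under the scalings tried. Of the negative controls, 12.8% were called higher and 37.4% lower in RNA, so a lower call was more common among them than among the EM10D entries. None of the 125 EM10D entries lay above the negative-control range and 2 lay below it, against 8.86% and 2.35% of all entries. Leaving out germ-free replicate 3 reduced the 68 called entries to 42, with 17 higher and 25 lower. The share of all entries in that setting is not given here, so this drop cannot be set against theirs.

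By name, 16 regions were higher and 21 lower in at least 1 germ-free sub-library, 5 of them in both directions, and 3 were called in neither. No region was higher in every sub-library that listed it, and 7 were lower in every one. Of these 7, EM10D2199452 and EM10D2945255 were listed in only 1 sub-library, and EM10D1470217 and EM10D1470219 in 2. The highest means were those of EM10D2955823 (1.03 ± 0.17, 3 sub-libraries), EM10D2546617 (0.86 ± 0.41, 5 sub-libraries) and EM10D1470215 (0.81 ± 0.93, 3 sub-libraries). EM10D2955823 had libraries from 0.02 through 0.88 to 1.93, EM10D2546617 from -0.12 through 1.13 to 1.45, and EM10D1470215 from -0.51 through 1.10 to 2.10. They were higher in 2 of 3, 3 of 5 and 2 of 3 sub-libraries, and their means differed by less than their spread. EM10D2104529, which led in HepG2 and conventional liver, averaged -0.11 ± 0.70 over 4 sub-libraries here.

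The lowest germ-free means were those of EM10D2945255 (-2.75, listed in sub-library 1 only), EM10D1470219 (-2.54 ± 0.20, 2 sub-libraries) and EM10D2895959 (-2.40 ± 1.08, 4 sub-libraries), each lower wherever listed. EM10D2945255 read -1.46, -4.45 and -2.35, and its call was lost without germ-free replicate 3 (mean -2.45). For EM10D1470219, sub-library 1 gave -1.84, -2.75 and -3.47 and sub-library 2 gave -3.15, -2.18 and -1.89. These 2 lie within each other's spread. For EM10D2895959, sub-library 1 gave -2.17, -1.67 and -1.09, sub-library 2 gave -2.0, -0.93 and -1.10, sub-library 3 gave -4.52, -2.43 and -2.13, and sub-library 5 gave -4.71, -2.95 and -3.12. It was thus low in all 12 libraries, on DNA counts of 554 to 844.

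Values of 1 name had a larger median spread over the sub-libraries of germ-free liver than over those of the other systems. Over names listed in at least 3 sub-libraries, the median SD of the sub-library means was 0.81 in germ-free liver (27 names), 0.36 in HepG2 (34 names) and 0.33 in conventional liver (25 names). The negative controls had 0.80, 0.38 and 0.46, in the same order of systems. Between the libraries of 1 sub-library the median SD was 0.48, 0.30 and 0.51. The correlation across EM10D names between pairs of sub-libraries had a median r of 0.79 in HepG2 (range 0.70 to 0.93, 10 pairs of 25 to 34 names), 0.70 in conventional liver (0.60 to 0.82, 6 pairs of 13 to 26 names) and 0.69 in germ-free liver (0.47 to 0.86, 10 pairs of 11 to 31 names). The order of the regions was therefore partly shared between sub-libraries of a system, while single values moved.

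EM10D2502903 shows the size of that movement in germ-free liver; it was picked for this after its values were seen. In sub-library 2 it read -0.76, -3.28 and -1.82 and was lower in RNA, and in sub-library 5 it read 1.53, 0.15 and 1.43 and was higher. For EM10D2183393, sub-library 2 gave 0.71, 0.34 and 0.58, which was higher, and sub-library 5 gave -2.68, -2.24 and -1.55, which was lower. The other names called in both directions were EM10D2199454, EM10D2895962 and EM10D2955767. In conventional liver, EM10D2955767 averaged 0.26, -0.13 and 0.17 in sub-libraries 1, 3 and 4, but its libraries of sub-library 5 read -3.49, -2.63 and -1.85, and the fitted value of -2.54 lay below the negative-control range, which began at -2.03.

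Across EM10D names, the mean values of 2 systems over the sub-libraries they shared were most alike between HepG2 and Hep3B, with Pearson's r of 0.79 and Spearman's rho of 0.78 (34 names). HepG2 and conventional liver had r of 0.61 and rho of 0.60 (34 names). Germ-free liver was less like HepG2 (r 0.34, rho 0.22, 34 names), Hep3B (r 0.25, rho 0.28, 34 names) and conventional liver (r 0.32, rho 0.28, 30 names). These are descriptions across names, which are not independent samples, and each system's values share its DNA libraries. The human-named regions that were listed in more than 1 sub-library gave 0.70, 0.65, 0.17, 0.12 and 0.42 for r over the same 5 pairs of systems, on 36 to 61 names. For the negative controls these were 0.71, 0.34, 0.18, 0.29 and 0.38, on 1515 to 1870 names. The likeness of the 2 lines, and the low values with germ-free liver, were thus not particular to the EM10D regions.

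The comparison of conventional liver with HepG2 asks whether a region drives the reporter in an organ as it does in a cell line, and was tested as the difference in RNA/DNA between the systems (edgeR's interaction term, per sub-library). Of 99 EM10D entries in both, 5 (5.05%) were higher and 16 (16.2%) lower in liver, where 12.5% of all 65891 entries were higher and 6.60% lower. The median EM10D difference was -0.65, against 0.03 over all entries. Outside the negative-control range lay 3 entries above and 11 below, against 6.16% and 4.30% of all entries. On library sizes alone the split was 3 higher and 36 lower (6.77% and 21.1% of all entries), and the EM10D median stayed 0.59 to 0.69 below that of all entries in the settings compared. Of the human-named regions listed in more than 1 sub-library, 9 of 118 entries were higher and 3 lower. The difference between these 2 sets of names was not tested.

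By name, 28 of 34 mean differences between conventional liver and HepG2 were negative. In at least 1 sub-library, 9 names were lower and 2 higher, without a share of all names to set beside these counts. EM10D2895961 had the largest negative difference, in the single sub-library that listed it in both. Its liver libraries read -1.58, -1.02, -0.41 and -1.54 and its HepG2 libraries 1.36 and 1.81, with no overlap and a fitted gap of -2.73 (SE 0.53, adjusted p = 0.00176 in edgeR). EM10D2895959 differed by -2.07, -1.82 and -1.78 in sub-libraries 1, 4 and 5 (SE 0.48, 0.41 and 0.46), all passing edgeR's test. In sub-library 4 its liver libraries read -2.17, -1.09, -1.28 and -1.72 and its HepG2 libraries 0.61, 0.39 and 0.09. EM10D2199384, among the highest in HepG2, averaged -0.04 ± 0.26 over 4 liver sub-libraries, and the difference was -1.77 ± 0.45, lower in liver in 2 of 4. Its liver libraries ran from -1.74 through 0.23 to 0.68, entirely below its HepG2 range.

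EM10D2183391 was the clear exception, higher in conventional liver than in HepG2 in 4 of 5 sub-libraries. The differences that passed edgeR's test were 1.13 (SE 0.28, adjusted p = 0.00966) in sub-library 1, 2.79 (SE 0.36, adjusted p = 0.000565) in sub-library 3, 2.94 (SE 0.38, adjusted p = 2.8e-05) in sub-library 4 and 2.48 (SE 0.39, adjusted p = 0.000382) in sub-library 5. In these 4 the liver libraries all lay above the HepG2 libraries. In sub-library 2 they all lay below them, at 0.75 and 0.83 against 1.40, 0.97 and 1.22, while the fitted difference was 0.43 and did not pass the test. Over the 3 EM10D entries that conventional liver and HepG2 shared in that sub-library, the fit lay 0.76 to 0.84 above the difference of the means. It was scaled on the 4578 entries tested in both, where HepG2 listed 22459 and conventional liver 4606. The cause of this departure was not tested. In sub-library 3 the liver value was moderate, 0.58 and 0.79, and the HepG2 libraries lay between -2.05 and -1.94. EM10D2183390 differed by 0.70 ± 0.32 (4 sub-libraries), positive in all 4 and higher in sub-library 4 (1.12, SE 0.34, edgeR adjusted p = 0.0285). That call was lost without conventional replicate 1 or 4 or HepG2 replicate 1 (mean differences of 0.74, 0.69 and 0.70) and on library sizes alone, where the mean was 0.0016. EM10D2199492, also named by the rule, averaged -0.24 ± 0.91 and was lower in liver in sub-library 4 (-1.25, SE 0.41, edgeR adjusted p = 0.0404), a call lost when any 1 replicate but conventional replicate 1 was left out (mean differences of -0.36 to -0.18).

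The other names lower in conventional liver than in HepG2 were EM10D2895960 (in 3 of 4 sub-libraries), EM10D2955769 (3 of 4), EM10D2199380, EM10D2546616, EM10D2955686 and again EM10D2199492 (1 sub-library each). EM10D2955769, chosen here after its values were seen, showed the difference in most detail in sub-library 4. Its liver libraries read -0.78, -0.65, -0.77 and -1.36 and its HepG2 libraries 1.82, 1.84 and 1.75, which fitted as -2.60 (SE 0.33, adjusted p = 2.24e-05 in edgeR). EM10D2104529, the highest region in both, was called in neither direction in this comparison.

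Germ-free liver against HepG2 gave a similar tilt. Of 119 EM10D entries, 11 (9.24%) were higher in germ-free liver and 30 (25.2%) were lower, where 15.9% of all 75615 entries were higher and 13.4% lower. The median difference was -0.70 for EM10D entries and 0.02 for all. Outside the negative-control range lay 2 above and 8 below, against 3.99% and 4.30% of all entries. Scaled on the negative controls, the split was 19 higher and 24 lower (21.1% and 9.41% of all entries), since all entries then had a median of 0.32, and the EM10D median lay 0.62 to 0.72 below that of all entries in the settings compared. By name, 24 of 34 mean differences were negative, 14 names were lower and 6 higher in at least 1 sub-library, and none was both. This comparison and that of conventional liver share the HepG2 libraries.

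EM10D2895959 was lower in germ-free liver than in HepG2 in all 4 sub-libraries that listed it in both, with differences of -2.15, -1.88, -3.60 and -3.62 in sub-libraries 1, 2, 3 and 5 (SE 0.57, 0.42, 0.81 and 0.67). Its germ-free values are given above, and its HepG2 libraries ran from 0.09 through 0.60 to 1.41, so the systems did not overlap. EM10D2104529 was lower in 3 of 4, with a mean difference of -2.54 ± 0.84. In sub-library 2 its germ-free libraries read 0.38, -0.37 and -0.38 against 3.38, 3.15 and 3.19 in HepG2, which edgeR fitted as a difference of -3.22 (SE 0.41, adjusted p = 0.00016). EM10D2895963 came after it, at -2.42 ± 0.87 over 3 sub-libraries and lower in 2 of them. In sub-library 5 its germ-free libraries read -2.48, -3.61 and -3.58 and its HepG2 libraries -0.14, 0.96 and -0.04.

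The largest positive difference between germ-free liver and HepG2 was that of EM10D2546617, at 1.89 ± 0.54 over 5 sub-libraries, positive in all 5 and higher in 3. In sub-library 4 its germ-free libraries read 1.45, 1.13 and 1.37 and its HepG2 libraries -1.74, -0.82 and -0.92, which edgeR fitted as a difference of 2.67 (SE 0.43, adjusted p = 0.00128). EM10D2183392 averaged 1.60 ± 0.85 over 3 sub-libraries and was higher in sub-library 2, where it read 1.20, 1.73 and 1.29 against -0.76, -1.50 and -0.92. EM10D2183390 averaged 1.46 ± 1.01 over 5 sub-libraries, positive in all 5 and higher in 2. For both of these, the differences in the remaining sub-libraries did not pass the test.

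Germ-free against conventional liver is the comparison of animals without and with a microbiota. It was split nearly evenly for the EM10D regions. Of 77 entries in both, 17 (22.1%) were higher in germ-free liver and 13 (16.9%) were lower, where 18.6% of all 56240 entries were higher and 20.7% lower, and the medians were 0.04 and 0.01. These shares lie near those of all entries. Outside the negative-control range lay 3 above and none below, against 3.77% and 5.15% of all entries. The split was 30 higher and 10 lower on library sizes alone, with 33.1% and 13.3% of all entries, and 21 higher and 9 lower when scaled on the negative controls, with 25.8% and 15.4%, so it moved as that of all entries did. Of 30 names, 9 were higher in at least 1 sub-library, 7 were lower, none was both and 14 were called in neither direction.

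EM10D2546617 was higher in germ-free liver in all 4 sub-libraries that listed it in both. In sub-library 1 it read 0.50, 1.30 and -0.03 in germ-free and -0.65, -1.82, -1.64 and -1.20 in conventional liver. In sub-library 2 it read 1.26, 1.27 and 1.28 against -3.03 and -2.82, in sub-library 3 it read 0.57, -0.12 and 0.72 against -0.95 and -2.22, and in sub-library 4 it read 1.45, 1.13 and 1.37 against 0.41, -1.34, -0.09 and -0.35. The groups did not overlap in any of the 4. The fitted differences were 1.93 (SE 0.44), 3.70 (SE 0.41), 2.12 (SE 0.68) and 1.90 (SE 0.40), with edgeR adjusted p of 0.0021, 6.47e-05, 0.0268 and 0.00144.

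EM10D2546616, whose name carries the preceding number, was also higher in germ-free than in conventional liver in all 3 shared sub-libraries, by 0.90 (SE 0.26), 1.38 (SE 0.31) and 1.97 (SE 0.51) in sub-libraries 1, 4 and 5 (edgeR adjusted p of 0.0118, 0.00231 and 0.00712). In sub-library 5 its libraries read 0.22, 1.32 and 1.33 against -1.80, -0.88 and -0.16. EM10D2199492 was higher in both shared sub-libraries, with a mean difference of 2.14 ± 0.64. In sub-library 4 it read 0.51, 0.95 and 0.45 in germ-free and -1.01, -1.93, -1.91 and -1.65 in conventional liver, which edgeR fitted as a difference of 2.59 (SE 0.32, adjusted p = 1.35e-05). It was thus higher than DNA in one kind of liver and lower in the other.

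The largest negative difference between the livers was that of EM10D2104529, lower in germ-free liver in both shared sub-libraries. In sub-library 4 its germ-free libraries read -0.02, 0.07 and 0.04 and its conventional libraries 2.74, 2.80, 2.53 and 2.69, a gap that edgeR fitted as -2.30 (SE 0.26, adjusted p = 5.78e-06). The readings of sub-library 5 were -1.27, -0.79 and -1.02 against 1.82, 0.37 and 2.06, which edgeR fitted as a difference of -2.47 (SE 0.48, adjusted p = 0.00103). The region that stood highest in HepG2 and in conventional liver was therefore near the bulk of entries or below it in these 2 sub-libraries of germ-free liver. EM10D2895964 was lower too, with differences of -1.26 (SE 0.27) and -2.71 (SE 0.50) in sub-libraries 4 and 5, as was EM10D2895963 with -2.58 (SE 0.61) in sub-library 5 (edgeR adjusted p of 0.00153, 0.000789 and 0.00435). EM10D2895964 read -2.23, -2.34 and -2.18 in germ-free sub-library 4 against -0.43, -0.54, -1.02 and -0.61.

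EM10D2955686, chosen here after its values were seen, was lower in germ-free than in conventional liver in 3 of 4 shared sub-libraries. In sub-library 4 it read -1.90, -2.25 and -2.30 against 0.05, 0.50, 0.29 and 0.23, and in sub-library 5 it read -2.59, -2.67 and -3.04 against -0.64, 0.78 and -0.52. The differences that passed were -1.60 (SE 0.49), -2.07 (SE 0.26) and -2.65 (SE 0.46) in sub-libraries 3, 4 and 5. The remaining names higher in germ-free liver were EM10D2183390, EM10D2955769 (2 sub-libraries each), EM10D2183392, EM10D2502903, EM10D2895962 and EM10D2955767 (1 each). The remaining names lower there were EM10D2183391 (3 of 5), EM10D1470217 (its only shared sub-library) and EM10D2895959 (1 of 2).

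Hep3B against HepG2, a p53-null and a p53-WT line in the labels, could be compared in sub-library 2 only. Of 34 EM10D regions, 1 (2.94%) was higher and 2 (5.88%) lower in Hep3B, where 5.09% of all 21622 entries were higher and 5.60% lower. The median difference was -0.18 for the EM10D regions and 0.12 for all entries. Against the negative-control range none was above and 2 were below, with 7.64% and 5.27% of all entries. The shares are close to those of all entries, and each line has a single DNA library.

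EM10D2895959 was the region higher in Hep3B, at 1.90 and 1.98 against 0.82, 0.72 and 0.59 in HepG2, which edgeR fitted as a difference of 1.20 (SE 0.18, adjusted p = 0.00385). EM10D2104529 was lower, at 1.73 and 1.89 against 3.38, 3.15 and 3.19, which edgeR fitted as a difference of -1.45 (SE 0.22, adjusted p = 0.00505), although it was far above DNA in both lines. EM10D2546616 was lower at -0.04 and 0.07 against 1.67, 1.29 and 1.18, which edgeR fitted as a difference of -1.39 (SE 0.29, adjusted p = 0.0198). None of the 3 overlapped between the lines, but this was so for most of the 34 regions, also far from the threshold. EM10D2955824, for example, did not overlap at a difference of -0.21 (edgeR adjusted p = 0.779). None of the 3 passed the test when scaled on the negative controls. Without HepG2 replicate 2 the call on EM10D2546616 was lost too (difference -1.44). With the replicate number as a block, only the call on EM10D2104529 was left. That block gave RNA libraries of the 2 lines with the same number a shared effect, although by title they are separate cultures. It therefore tells little about the other 2 calls. The other 31 differences did not pass the test, which does not show that the regions act alike in the 2 lines.

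Entries of 1 name are not independent regions, so the sub-libraries were also joined in 1 model for names that both systems listed in all 5. The joined value averages the sub-libraries, and its SE and p-value rest on the spread between libraries within them. They leave out how far the sub-libraries differ. Between the livers, the single differences ran from -2.18 to 0.56 for EM10D2183391 and from -0.20 to 1.79 for EM10D2895962. The thin sub-library 2 of conventional liver left a single EM10D name in its comparisons. EM10D2183391 was lower in germ-free than in conventional liver (difference -1.03, SE 0.18, edgeR adjusted p = 1.69e-06) and higher in conventional liver than in HepG2 (difference 1.95, SE 0.16, edgeR adjusted p = 3.39e-14). Among all names tested in these models, 47.8% were higher and 24.6% lower in the first (69 names), and 28.7% and 18.4% in the second (136 names), so being called there is common. Without sub-library 2, 7 EM10D names could be joined for germ-free against conventional liver: EM10D2183390 (0.99, SE 0.20) and EM10D2895962 (0.70, SE 0.25) were higher, and EM10D2955686 (-1.74, SE 0.19) and EM10D2183391 (-1.17, SE 0.20) were lower, where 30.7% of all 264 names were higher and 25.0% lower. For conventional liver against HepG2, 9 names could then be joined, with EM10D2183391 (2.33, SE 0.18) and EM10D2183390 (0.70, SE 0.23) higher, and EM10D2199384 (-1.77, SE 0.28), EM10D2895960 (-1.52, SE 0.25) and EM10D2955686 (-0.80, SE 0.22) lower, where 22.9% of all 677 names were higher and 14.6% lower.

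Germ-free liver against HepG2 could be joined for 10 EM10D names, of which 3 were higher and 4 lower, where 37.5% of 307 names were higher and 22.8% lower. EM10D2546617 (1.90, SE 0.25), EM10D2183390 (1.46, SE 0.24) and EM10D2183391 (0.85, SE 0.22) were higher. EM10D2955686 (-2.29, SE 0.21), EM10D2199384 (-1.57, SE 0.25), EM10D2895960 (-1.18, SE 0.27) and EM10D2955824 (-1.03, SE 0.32) were lower. EM10D2895962 (0.07, SE 0.30), EM10D2955767 (0.09, SE 0.26) and EM10D2546616 (-0.08, SE 0.19) did not pass. The call on EM10D2183391 rested on sub-library 3, without which the difference was 0.26 (SE 0.25, edgeR adjusted p = 0.401), and that on EM10D2955824 was lost when scaled on the negative controls (edgeR adjusted p = 0.0962).

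The numbers within the 35 names were clustered: 30 names fell into 9 runs in which neighbours differed by at most 4, the longest of 7 names, and 5 stood alone. Whether near numbers mean near positions in the genome was not checked here. The run EM10D2895959 to EM10D2895966 held regions at both ends of the range. In Hep3B, EM10D2895959, EM10D2895960, EM10D2895961 and EM10D2895966 averaged 1.94, 1.57, 1.31 and 1.36, the last on a DNA count of only 11, while EM10D2895962, EM10D2895963 and EM10D2895964 averaged -0.24, -0.17 and 0.80. In HepG2 the means in order of number were 0.63, 1.92, 1.39, -0.15, 0.23, -0.63 and 0.29. In conventional liver all but EM10D2895960 had a negative mean, from -1.52 to -0.31, and in germ-free liver likewise, from -2.40 to -0.18.

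Names with near numbers did not share one level in several runs. In the run EM10D2199380, EM10D2199381 and EM10D2199384, the HepG2 means were 0.40, -0.87 and 1.84 and the Hep3B means 0.26, -1.73 and 2.17. EM10D2199452 and EM10D2199454 averaged -1.75 and 0.38 in HepG2 and -1.90 and -0.15 in conventional liver. The run EM10D2183390 to EM10D2183393 averaged -0.59, 0.09, -0.84 and 0.58 in HepG2, 0.00, 1.81, -0.43 and -0.46 in conventional liver, and 0.67, 0.73, 0.73 and -0.85 in germ-free liver. In EM10D1470215, EM10D1470217 and EM10D1470219 the germ-free means spanned 3.36, from 0.81 to -2.54, the widest span of any run in that system.

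The run EM10D2955767 to EM10D2955771 averaged 0.09, -0.55, 1.41, 0.23 and -0.62 in HepG2, where EM10D2955769 was higher in RNA in 3 of 5 sub-libraries, with libraries of 2.17 and 1.69 in sub-library 1. In Hep3B the same 5 averaged -0.17, -2.26, 1.67, -0.50 and -0.66. EM10D2546616 and EM10D2546617 averaged 1.08 and -0.88 in HepG2 but 0.81 and 0.86 in germ-free liver. EM10D2955823 and EM10D2955824 averaged 1.13 and 0.23 in HepG2, 0.43 and -0.62 in conventional liver, and 1.03 and -1.02 in germ-free liver. EM10D2945255 and EM10D2945256 were below 0 on average in all 4 systems.

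Of the names that stood alone, EM10D2104529, EM10D2199492 and EM10D2955686 are described above. EM10D2199554 averaged -0.20 ± 0.32 in HepG2 (5 sub-libraries), -0.82 ± 0.87 in germ-free (3) and -1.09 ± 0.16 in conventional liver (3). For EM10D2502903 these means were -0.37 ± 0.67 (5 sub-libraries), -0.64 ± 1.24 (4) and -0.63 ± 0.28 (4). EM10D2945256 and EM10D2955770 were called in neither direction against DNA in any of the 4 systems. EM10D2955770 had DNA counts of 36 to 71 in HepG2 and liver and 12 in Hep3B, and standard errors of 0.37 to 0.82 for its log2 RNA/DNA, so a failed test does not show that RNA and DNA were equal.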

How the data were processed

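The deposited tables give raw counts per region and library, made by the authors with BWA per the submitters' processing notes, which also name hg38, DESeq2 1.42.1 and edgeR 4.0.16; the reference for mouse-named regions is not given in the sources used here. PCR copies are counted as reads, so counts overstate the number of independent molecules. In germ-free sub-library 3 the header's replicate numbers differ from the titles, and columns were matched by library name. The RNA-seq tables were not used.

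Each sub-library was fitted with edgeR 4.0.16 in R 4.3.3 (robust quasi-likelihood, TMM, mean DNA count of at least 10), RNA against DNA, or its interaction with the system, and p-values were Benjamini-Hochberg adjusted over all entries of all sub-libraries, with a threshold of 0.05. A library's log2 RNA/DNA adds 0.5 to the RNA count and subtracts the mean log2 DNA; fitted differences are scaled on the entries both systems list and departed from differences of these means by -0.53 to 0.84 over 329 EM10D entries, turning the sign of 13, none of them called. Whether such a departure carried a difference across the threshold was not tested. The script was tested on simulated data.

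Names given are the 3 highest and 3 lowest means per system, and per comparison among names past the threshold; the rest follow by range and count. Members, lists and rules were chosen with earlier results of these data known. In both kinds of liver, RNA and DNA libraries with the same number did not deviate together (r from -0.05 to 0.04). This does not show whether they came from the same animal. Alternatives were DESeq2 1.42.0, other scalings, DNA minimums, a replicate block, RNA alone and left-out replicates or sub-libraries.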

Additional observations from a re-analysis of the deposited data

Results flagged for a closer look

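In 1 of 34 groups of 4 libraries tested for a library far from the others, one was found, where chance gives about 1 in 20. EM10D1470219 in conventional liver sub-library 1 had a lowest library of -2.34, with the other 3 between -1.66 and -1.59.

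In 17 cases a region was called higher in RNA than DNA in one system and lower in the other within the same sub-library, and the difference passed edgeR's test too. These were 3 of 77 EM10D entries between germ-free and conventional liver (3.90%, against 4.88% of all entries), 4 of 99 between conventional liver and HepG2 (4.04%, against 1.45%), 10 of 119 between germ-free liver and HepG2 (8.40%, against 4.52%) and 0 of 34 between Hep3B and HepG2 (0.98% of all entries). Whether these shares differ from those of all entries was not tested. A call of lower in RNA was also made for 37.4% of the negative controls in germ-free liver and 22.0% in conventional liver.

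Between germ-free and conventional liver they were EM10D2104529 in sub-library 5 (difference -2.47, means of -1.03 and 1.4), EM10D2199492 in sub-library 4 (2.59, means of 0.64 and -1.63) and EM10D2546617 in sub-library 2 (3.70, means of 1.27 and -2.92). Between conventional liver and HepG2 they were EM10D2199380 in sub-library 4 (-1.78, means of -0.57 and 1.27), EM10D2546616 in sub-library 4 (-1.81, means of -0.73 and 1.20), EM10D2895961 in sub-library 1 (-2.73, means of -1.14 and 1.59) and EM10D2955769 in sub-library 4 (-2.60, means of -0.89 and 1.80).

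Between germ-free liver and HepG2 the positive ones were EM10D2183391 in sub-library 3 (3.24, means of 0.96 and -2.0) and EM10D2546617 in sub-library 4 (2.67, means of 1.32 and -1.16). The negative ones were EM10D1470217 in sub-library 2 (-1.46, means of -0.68 and 0.89), EM10D2104529 in sub-library 5 (-3.0, means of -1.03 and 2.13), EM10D2895961 in sub-library 4 (-2.81, means of -2.0 and 1.13) and EM10D2955824 in sub-library 2 (-1.47, means of -0.77 and 0.82). Among these negative ones, EM10D2895959 counted in sub-libraries 2 (-1.88, means of -1.34 and 0.71) and 3 (-3.60, means of -3.03 and 1.09), and EM10D2955686 in sub-libraries 1 (-1.80, means of -0.86 and 0.99) and 4 (-2.92, means of -2.15 and 1.01). EM10D2104529, EM10D2546617, EM10D2895959, EM10D2895961 and EM10D2955686 appear more than once among the 17.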

How the results depend on the processing

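Of 117 counts recomputed under an alternative, 96 stayed within 1.5 times the reported count and 21 did not. Judged against the central 95% of the negative controls, called entries fell from 49 to 30 in HepG2, 14 to 6 in Hep3B, 68 to 2 in germ-free and 40 to 9 in conventional liver, 30 to 3 between the livers and 41 to 10 between germ-free liver and HepG2. On library sizes alone, conventional liver had 84 and conventional liver against HepG2 39. In Hep3B, 5 of 35 were called when scaled on the negative controls and 9 of 35 with DESeq2. A DNA minimum of 50 left 14 regions there, of which 9 were called, so fewer were tested as well. The share of all entries at that minimum is not given here. Hep3B against HepG2 gave 3 in edgeR's test, 3 with DESeq2 and 1 with a replicate block. Scaled on the negative controls it gave 0 (3 at an unadjusted p under 0.05 in edgeR). With a DNA minimum of 50, 14 regions were left and 5 of them called. RNA libraries alone gave 9, of which 3 were higher and 6 lower, where 17.8% of all entries were higher and 15.4% lower. Without germ-free replicates the germ-free count ran from 42 to 57. Joined, the single call between the livers became 4, 2 and 2 without sub-libraries 2, 3 and 5, and that between conventional liver and HepG2 became 5 and 2 without sub-libraries 2 and 3, where more names could be joined. The mean of EM10D2955823 in conventional liver turned to -0.47 on library sizes alone, and the cause was not tested.

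The replicate number was also used as a block, although the labels do not say whether equal numbers share an animal or culture. Conventional liver then had 43 calls and germ-free liver 62. Between the livers there were 27, and against HepG2 19 for conventional and 41 for germ-free liver. The shares of all entries under this block are not given here, so these counts cannot be set against theirs. The joined fits gave 1, 1 and 7. All these counts under the block were within 1.5 times of the reported counts. Only the count of Hep3B against HepG2 moved further, with EM10D2104529 left. There the block tied equal numbers across the 2 lines, which by title are separate cultures, and pairing was not checked in these lines. For named regions, 50 recomputed values lost the call in every sub-library and 1 reversed. The others kept the direction and a call in at least 1 sub-library, which can be fewer sub-libraries than reported above. Depth limits Hep3B most, where DNA counts of EM10D regions start at 11.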
